A study of Arabidopsis thaliana with 12 samples.

Results

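Small RNA in the triple mutant rdr6-11 ein5-1 ski2-3 was compared with small RNA in wild-type Col-0, to see how far removal of RDR6 brings the decay mutant's profile back to wild type and what stays different. The comparison rests on 6 of the 12 libraries of the series, 3 per genotype, chosen by their genotype label alone, and covers all 30926 gene rows of the count table. The 3 libraries each of the double mutant ein5-1 ski2-3 and of the single mutant rdr6-11 served as points of comparison. Every library came from the aerial parts of 18-day-old Arabidopsis thaliana plants, grown first as greenhouse seedlings and then on soil. The triple mutant carries the rdr6-11, ein5-1 and ski2-3 alleles in every cell, the double mutant lacks only the rdr6-11 allele of these, and Col-0 carries none. Whether 1 plant or a pool made a library is not given in the sources used here, and in such bulk tissue fewer cells of a type and less RNA per cell cannot be told apart.

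EIN5 (also named XRN4) digests uncapped cytoplasmic RNA from the 5′ end, and SKI2 is the helicase that feeds RNA to the cytoplasmic exosome, which degrades it from the 3′ end. RDR6 copies single-stranded RNA into double-stranded RNA, which Dicer-like enzymes cut into secondary siRNAs. In wild-type plants RDR6 acts mainly on RNAs cut by certain miRNAs: the non-coding TAS transcripts and a group of pentatricopeptide repeat (PPR) genes. When RNA decay fails, RDR6 also acts on many ordinary mRNAs, so that they give rise to siRNAs.

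The miRNAs that open these secondary siRNA pathways, and the stretch of each locus that matches them best, are printed because many of the largest losses in the triple mutant lie at such loci. Mature sequences were read from the RefSeq TAIR10.1 annotation and genome, 5′ to 3′, with bases 2 to 8 (the seed) in capitals.
miR173-5p: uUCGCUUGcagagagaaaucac
miR390a-5p: aAGCUCAGgagggauagcgcc
miR828: uCUUGCUUaaaugaguauucca
miR161.1: uGAAAGUGacuacaucggggu
miR161.2: uCAAUGCAuugaaagugacua
In the loci, the capitals mark the bases opposite the seed.
TAS1A and TAS1C with miR173-5p: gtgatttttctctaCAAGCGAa
TAS2 with miR173-5p: gtgatttttctctcCAAGCGAa
TAS3A with miR390a-5p: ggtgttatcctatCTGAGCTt
TAS4 with miR828: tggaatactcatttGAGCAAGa
AT1G63150 with miR161.2: ttgttactttcaaTGCATTGa
The TAS1A stretch lies at chr2:11722081-11722102 and the TAS2 stretch at chr2:16539991-16540012, both on the minus strand of TAIR10.1. Each had 1 mismatch and 1 G:U pair with miR173-5p. The TAS3A stretch at chr3:5862099-5862119 on the plus strand had 1 mismatch and 4 G:U pairs. The next best TAS3A stretch, at chr3:5862343-5862363, had 5 mismatches and 0 G:U pairs. Which of these TAS3A stretches is cut was not tested. The TAS4 stretch at chr3:9417809-9417830 on the minus strand had 0 mismatches and 1 G:U pair. The AT1G63150 stretch at chr1:23420372-23420392 for miR161.1 and at chr1:23420381-23420401 for miR161.2 overlap on the plus strand, as the 2 miRNAs come from overlapping parts of the MIR161 precursor. Such a match is a description of the sequence and not evidence of cutting.

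Library totals were 2609941, 2717600 and 2701855 counts in the triple mutant and 2750605, 2358724 and 2733682 in Col-0, and the median gene had 2 counts per triple mutant library and 1 per Col-0 library. Nuclear rRNA genes held 55.7% to 56.6% of the counts in the triple mutant and 55.2% to 55.9% in Col-0. The mutated genes RDR6, EIN5 and SKI2 had at most 7 counts in any library, which is no check of the alleles. Photosynthesis genes served as leaf markers, with levels in CPM (counts scaled by library size with the TMM method). They summed to 2879 to 3085 CPM in the triple mutant and 3216 to 3461 CPM in Col-0. The direction of this difference depends on the scaling. The median log2 change of the 36 genes over Col-0 was -0.14 with TMM and 0.24 with library totals alone. Of 8 floral organ genes none had enough counts to be tested, with 0.747 to 1.47 CPM in the triple mutant and 1.10 to 1.44 CPM in Col-0 summed over the list. The 7 root genes in the table summed to 6.06 to 8.45 CPM in the triple mutant and 0.940 to 1.64 CPM in Col-0, and 2 of them, SHR and SCR, could be tested. Their part in the results was not tested.

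Without RDR6 the decay mutant's profile lay closer to wild type, but not on it. Levels here are read counts scaled by library size with the TMM method and given as CPM, and a gene was called at an edgeR adjusted p under 0.05 over the 7219 genes with enough counts to test. In the triple mutant against Col-0, 634 genes were higher and 687 lower, which is 8.78% and 9.52% of the genes tested and 18.3% in all. At least 2-fold were 497 of the higher and 191 of the lower. The double mutant against the same Col-0 libraries had 2202 genes higher (30.5%) and 1357 lower (18.8%), or 49.3% of the genes tested, with 1524 and 629 at least 2-fold. Without ein5-1 ski2-3 replicate 3 the double mutant had 1635 genes higher and 1844 lower, and without rdr6-11 replicate 2, which shares the fit, 1693 and 1726. Its lower genes at 2-fold or more were then 1357 and 1037. These comparisons share their Col-0 libraries, so their values are set side by side and no overlap was computed.

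The size of the changes followed the same order. The median absolute log2 change was taken over 2210 genes with a mean of at least 10 CPM across all genotypes. It was 0.34 for the triple mutant and 0.76 for the double mutant, each against Col-0. A gene could reach this mean through the double mutant alone, which favours larger changes there, so these sizes are a description. A change of 2-fold or more was seen in 9.96% of these genes in the triple mutant and in 28.1% in the double mutant. The triple mutant compared directly with the double mutant had 1037 genes higher (14.4%) and 1946 lower (27%), 41.3% in all, a split that became 1461 and 1337 without rdr6-11 replicate 2 and 1570 and 1235 without ein5-1 ski2-3 replicate 3. Compared with rdr6-11 it had 1473 higher (20.4%) and 1819 lower (25.2%), 45.6% in all. All 3 triple mutant libraries lay above, or all below, the 3 Col-0 libraries at 2368 genes, 32.8% of those tested. Only 4408 genes had enough counts when the triple mutant and Col-0 libraries were taken alone, so many of the 7219 entered through the other genotypes. In a fit of these 2 genotypes, 566 of the 4408 were called higher and 645 lower. The double mutant and Col-0 libraries alone gave 1596 higher and 1691 lower of 6372.

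**Figure D1:**
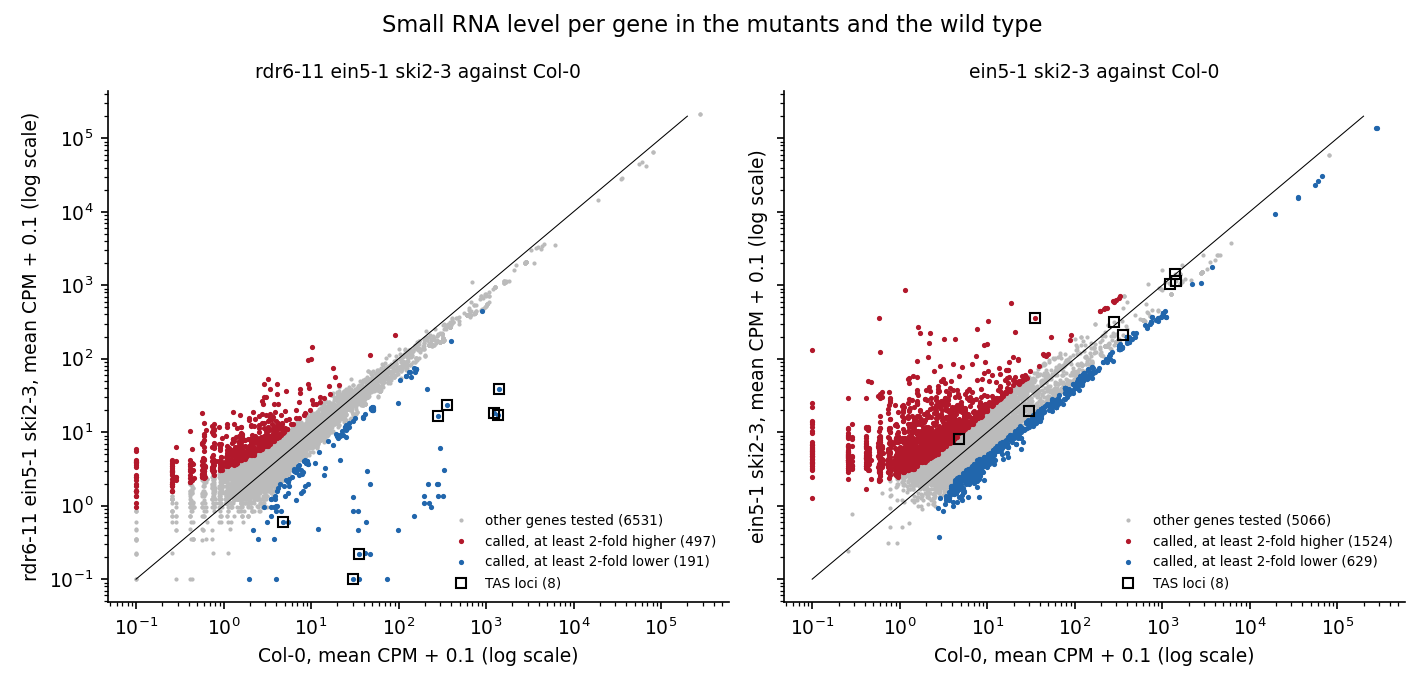
Mean small RNA level per gene (CPM + 0.1, log axes) in the triple mutant against Col-0 (left) and in the double mutant against the same Col-0 libraries (right), with called genes changed at least 2-fold in red and blue and TAS loci as squares. The triple mutant had 497 such genes higher and 191 lower and the double mutant 1524 and 629, and the TAS loci lie far below the diagonal in the triple mutant panel.

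The counts depend on how libraries are scaled. The TMM factors were 0.991 to 1.01 in the triple mutant and 0.758 to 0.778 in Col-0. With library totals alone, 1576 genes were higher and 250 lower in the triple mutant than in Col-0, and the median log2 change of all genes was 0.41 in place of 0.03. Changes smaller than this shift take their direction from the scaling, and the gene classes described below are affected unequally.

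Shares of library counts amount to scaling by library totals. By this share protein-coding genes held 7.41% to 7.50% in the triple mutant, 10.7% to 11.7% in the double mutant and 6.33% to 6.44% in Col-0. The triple mutant thus kept 21.4% of the double mutant's excess over Col-0 in this class. Loci annotated as pseudogenes held 2.66% to 2.85% in the triple mutant, 3.95% to 4.85% in the double mutant and 2.13% in each Col-0 library, and 25.0% of the excess was kept. Both kept parts apply to library totals only. With TMM scaling protein-coding genes summed to 74430 CPM in the triple mutant, 83100 in the double mutant and 83090 in Col-0. Pseudogenes summed to 27230, 32480 and 27630 CPM in the same order. As shares of counts outside rRNA, tRNA and organelle genes, the kept part was 614% for protein-coding genes, where the double mutant differed little from Col-0, and 85.6% for pseudogenes. TAS loci lay far below both: they held 0.0108% to 0.0118% of counts in the triple mutant, 0.495% to 0.735% in the double mutant and 0.355% to 0.375% in Col-0. For MIR genes the triple mutant, with 1.92% to 2.18%, lay below both the double mutant with 2.43% to 3.69% and Col-0 with 2.29% to 2.45%. Outside rRNA, tRNA and organelle genes, MIR genes held 15.3% to 16.6% in the triple mutant and 13.2% to 16.9% in the double mutant, which overlap, and 19.5% to 20.7% in Col-0. tRNA genes held 8.44% to 8.78% in the triple mutant and 9.72% to 9.83% in Col-0. In each of these 5 classes the 3 triple mutant libraries did not overlap the 3 Col-0 libraries. The same held for every other class except rRNA genes, so it does not set these 5 apart. These shares carry no test, because 3 libraries against 3 cannot give an exact permutation p below 0.1.

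**Figure D2:**
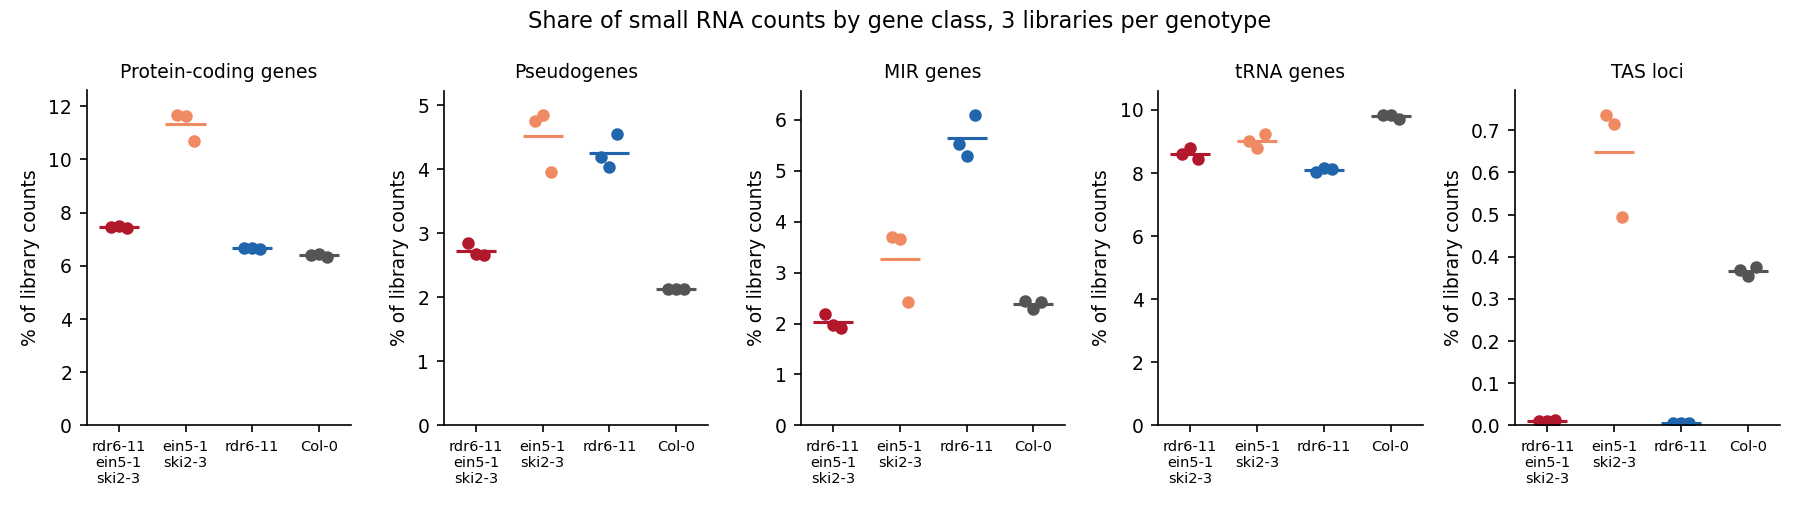
Percent of library counts held by 5 gene classes, 1 point per library and a bar at the mean of the 3 libraries of each genotype. Protein-coding genes and pseudogenes of the triple mutant lie between the double mutant and Col-0, TAS loci lie near 0, and MIR and tRNA genes lie below Col-0.

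Losses were large at the TAS loci, the non-coding precursors of trans-acting siRNAs. All 8 were called lower in the triple mutant than in Col-0, beside 9.52% of all genes tested. Their median log2 change was -5.66, beside 0.03 over all genes. TAS1A had 16.3, 18.7 and 18.7 CPM in the triple mutant, against 1274, 1206 and 1250 CPM in Col-0. The ranges are far apart, and the log2 change was -6.11 ± 0.12 (SE, edgeR adjusted p = 1.82e-41). TAS2 had 12.1, 17.6 and 21.3 CPM in the triple mutant and 1407, 1365 and 1389 CPM in Col-0, a log2 change of -6.34 ± 0.13. TAS1C averaged 38.4 ± 3.3 CPM in the triple mutant and 1422 ± 76 CPM in Col-0 (SD, n = 3 each). TAS1A, TAS1C and TAS2 are all cut by miR173, and their siRNAs act on PPR and other mRNAs in trans.

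TAS3A, the miR390-dependent source of siRNAs against ARF transcription factors, averaged 23.3 ± 5.6 CPM in the triple mutant and 356 ± 15 CPM in Col-0 (SD, n = 3 each), the second smallest loss of the 8. TAS3B had 0 counts in all 3 triple mutant libraries and 69, 49 and 63 counts in Col-0, so it was at least 80.3-fold lower when 3 counts are set for the group. TAS4, whose siRNAs act on MYB genes of anthocyanin synthesis, had 0, 1 and 0 counts in the triple mutant and 82, 45 and 87 in Col-0, a 285-fold lower level with a 95% counting interval of 50.6 to 11300. In the double mutant TAS4 averaged 354 ± 63 CPM (SD, n = 2), so this locus was higher there than in Col-0 and nearly empty once RDR6 was also missing.

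A low level of small RNA remained at TAS1A, TAS1B, TAS1C, TAS2 and TAS3A of the triple mutant. At these 5 of the 8 TAS loci it was called higher than in rdr6-11. Among all genes tested 20.4% were higher and 25.2% lower in the triple mutant than in rdr6-11. TAS3B, TAS3C and TAS4 had few counts in both and were not called. TAS1C averaged 38.4 ± 3.3 CPM in the triple mutant and 15.8 ± 0.7 CPM in rdr6-11, a log2 change of 1.28 (edgeR adjusted p = 1.74e-09). For TAS3A the means were 23.3 ± 5.6 CPM in the triple mutant and 6.65 ± 0.87 CPM in rdr6-11, a log2 change of 1.801 (SD, n = 3 each). TAS1B and TAS2 also were higher in the triple mutant than in rdr6-11, by 1.44 and 1.23 on the log2 scale. The table gives no read length, so siRNAs and fragments of the longer transcript were counted together.

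PPR genes that yield phased siRNAs in wild type were also far below Col-0. Of 21 listed genes 20 could be tested, and all 20 were called lower in the triple mutant than in Col-0 and lower than in the double mutant. Among all genes tested these shares were 9.52% and 27%. Their median log2 change against Col-0 was -7.19, or -6.99 with the 2 genes at 0 counts, RPF1 and NG1, at their bound. The other members lay between -8.14 and -2.46. Against rdr6-11 none of the 20 was called higher and 3 were lower, beside 20.4% and 25.2% of all genes tested. The median log2 change there was -0.77, and that of the TAS loci was 0.875. Several of the PPR genes had few counts in both genotypes. Summed over libraries, RPF1 had 0 counts in the triple mutant and 3 in rdr6-11, and AT1G63080 had 10 and 16. The difference between the medians was not tested. RPF1, which encodes a mitochondrial RNA processing factor, had 0 counts in all 3 triple mutant libraries and 67, 67 and 80 in Col-0, at least 94.95-fold lower. AT1G63080 (chr1:23387574-23390838 in TAIR10.1, minus strand) had 1.52, 1.47 and 0.747 CPM in the triple mutant, against 344, 304 and 308 CPM in Col-0. No triple mutant library came near a Col-0 library there, and the log2 change was -7.96 ± 0.20 (SE, edgeR adjusted p = 8.54e-37).

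AT1G63150, shown above with its miR161 match, averaged 0.992 ± 0.41 CPM in the triple mutant and 223 ± 8.8 CPM in Col-0 (SD, n = 3 each). RPF3, another mitochondrial RNA processing factor of the same cluster, averaged 1.86 ± 0.36 CPM in the triple mutant and 284 ± 13 CPM in Col-0. AT1G63630, annotated as a tetratricopeptide repeat protein, had no count in any triple mutant library and 147, 142 and 155 counts in Col-0, at least 197-fold lower. The PPR genes of this cluster are close copies of each other, and the handling of multiply matching reads is not given in the sources used here, so the loss is one of the group rather than of single members. Several were above Col-0 in the double mutant, AT1G63080 by 1.07 on the log2 scale.

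**Figure D3:**
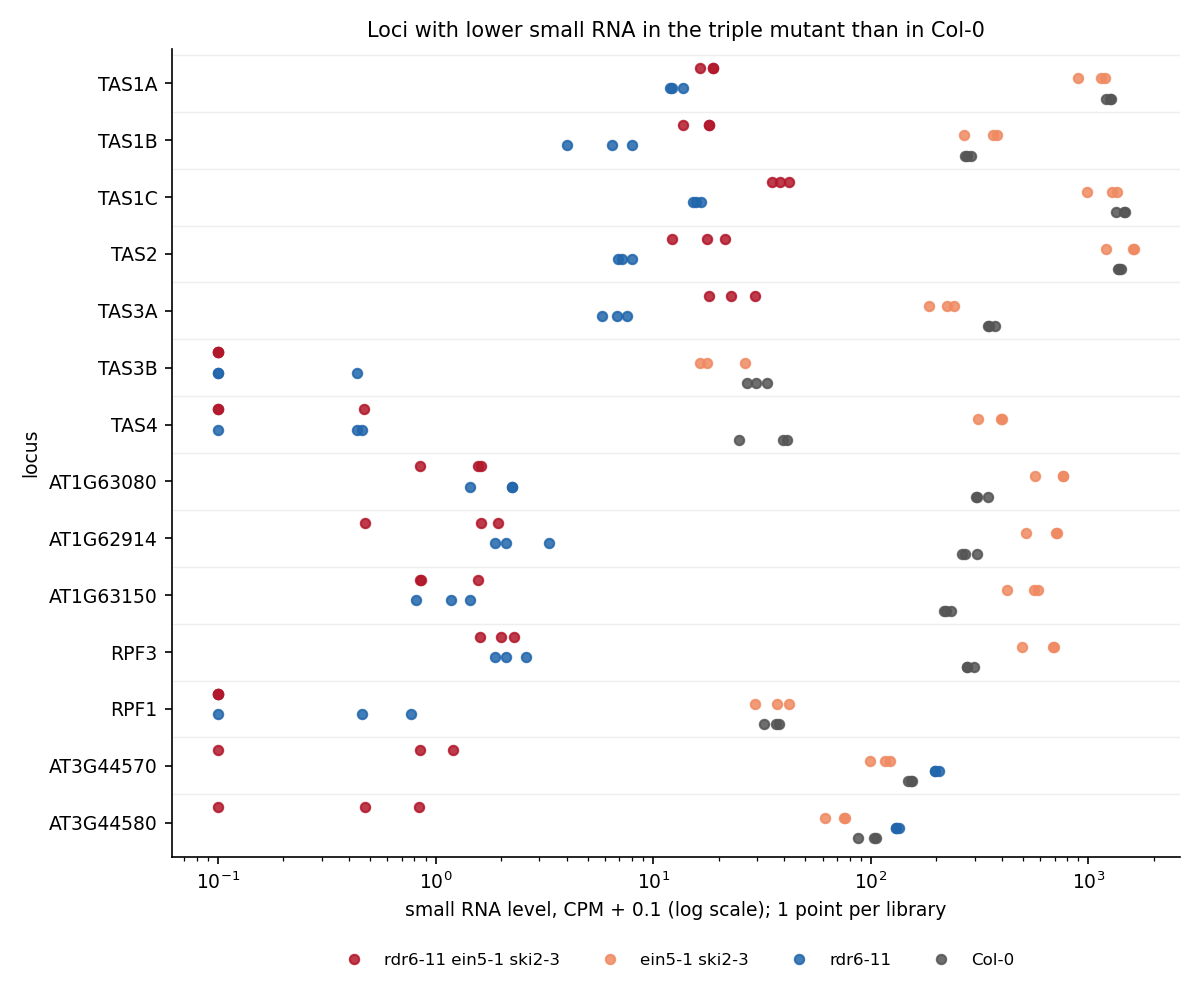
Small RNA level (CPM + 0.1, log axis) in every library at TAS loci, PPR genes and a pair of transposon loci that were lower in the triple mutant than in Col-0. At TAS and PPR loci the triple mutant lies near rdr6-11, and at AT3G44570 and AT3G44580 it lies alone below the other 3 genotypes.

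The triggering miRNA genes were still covered. MIR173 had 152, 152 and 155 CPM in the triple mutant, against 167, 140 and 158 CPM in Col-0. The groups overlap, and the log2 change was -0.02 ± 0.10 (SE, edgeR adjusted p = 0.917). MIR390a averaged 80.6 ± 8.4 CPM in the triple mutant and 87.5 ± 6.6 CPM in Col-0 (SD, n = 3 each), with a log2 change of -0.12 that did not pass the test. MIR161, which acts on the PPR cluster, had 499.8, 467 and 442 CPM in the triple mutant and 932.2, 899.4 and 849.7 CPM in Col-0. All 3 triple mutant libraries were lower, and the log2 change of -0.93 ± 0.09 passed the test (SE, edgeR adjusted p = 1.04e-12). MIR828, the trigger at TAS4, had 0, 2 and 0 counts in the triple mutant and 0, 1 and 1 in Col-0, too few to compare.

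Other genes known to give phased siRNAs changed in part. Of 19 listed, 12 could be tested, of which 6 were called lower in the triple mutant than in Col-0 and none higher. Among all genes tested these shares were 9.52% and 8.78%. The median log2 change of the 12 was -0.97, beside 0.03 over all genes. The immune receptor gene AT5G38850 had 2.65, 2.94 and 2.99 CPM in the triple mutant, against 41.7, 42.2 and 45.1 CPM in Col-0, with no overlap and a log2 change of -3.89 ± 0.23 (SE, edgeR adjusted p = 1.15e-20). AT5G43740 and AT5G43730, neighbouring immune receptor genes, fell by 2.48 and 2.28 on the log2 scale. ARF4 and ARF3, auxin response factors targeted by the TAS3 siRNAs, fell by 2.37 and 2.195, and ARF2, another such target, fell by 0.78. The auxin receptor genes TIR1, AFB2 and AFB3 had log2 changes of 0.69, 0.20 and -0.71, none of which passed the test. SPL2, a transcription factor gene targeted by miR156, was the only called member of the miRNA target list below Col-0. It had 1.14, 2.21 and 2.24 CPM in the triple mutant, against 47.0, 47.1 and 47.5 CPM in Col-0, and 58.2 ± 15 CPM in the double mutant (SD, n = 2).

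A different kind of loss was seen at 2 adjacent loci on chromosome 3 that the annotation classes as transposons. AT3G44570 (chr3:16158405-16159835) had 0, 3 and 2 counts in the triple mutant and 321, 271 and 325 in Col-0. The double mutant had 436, 422 and 367 counts there, and rdr6-11 had 551, 589 and 571. AT3G44580 (chr3:16160338-16161837) had 0, 2 and 1 counts in the triple mutant and 219, 159 and 219 in Col-0. Unlike the TAS loci, these loci were well covered in rdr6-11, and AT3G44570 had a log2 change of -8.24 for the triple mutant against rdr6-11. The 2 loci are 92.3% identical over 1170 aligned bases, so part of their reads may be shared.

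The genes with the strongest gains in the double mutant were much lower in the triple mutant. Of these 12, 6 were still called higher than in Col-0, beside 8.78% of all genes tested. The 12 genes with the largest rise in the double mutant at 50 CPM or more kept between 0.0925% and 27.3% of that excess in the triple mutant, with a median of 1.42%. These genes were chosen for their level in the double mutant, so the values describe them and carry no test. Still called above Col-0 were AT1G13360, AT1G11700, ATHB8, NIA1, ARF6 and AT2G39870, and not called were SMXL4, SMXL5, GRF5, CRF2, NPY5 and DFL1. The call was lost under 6 alternatives at AT2G39870 and under 3 at ATHB8. A call was gained under 3 alternatives at NPY5, 2 at DFL1 and 1 at CRF2. SMXL5, a gene of phloem formation, had 1.89, 1.47 and 2.24 CPM in the triple mutant, against 950.0, 950.0 and 761 CPM in the double mutant and 0.480, 2.19 and 0.470 CPM in Col-0. The triple mutant libraries overlap Col-0 there, and the log2 change of 0.88 ± 0.61 against Col-0 did not pass the test (SE, edgeR adjusted p = 0.408). These are 5, 4 and 6 counts in the triple mutant and 1, 4 and 1 in Col-0, so a difference was not detectable at this depth. GRF5, which promotes leaf cell proliferation, had 0, 1 and 0 counts in the triple mutant, 542, 541 and 425 in the double mutant and 0 in every Col-0 library. CRF2, a cytokinin response factor, averaged 1.499 ± 0.67 CPM in the triple mutant, 355 ± 69 CPM in the double mutant and 0.477 ± 0.48 CPM in Col-0. All 3 triple mutant libraries lay above Col-0 at CRF2, but with 3 counts in Col-0 the difference did not pass the test (edgeR adjusted p = 0.205).

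Of the 10 nitrate reductase and SMXL genes, 8 could be tested, 3 of which had enough counts in the triple mutant and Col-0 libraries alone. Of the 8, 3 were called higher in the triple mutant than in Col-0 and all 8 were lower than in the double mutant. Among all genes tested these shares were 8.78% and 27%. A gene could pass the filter through the double mutant alone, which favours a lower level in the triple mutant. The count of genes lower than in the double mutant is therefore a description. NIA2, the main nitrate reductase of leaves, had 45.5, 36.8 and 40.3 CPM in the triple mutant, against 228 ± 30 CPM in the double mutant (SD, n = 2) and 19.7, 20.8 and 22.1 CPM in Col-0. All triple mutant libraries lay above Col-0, with a log2 change of 0.97 ± 0.16 (SE, edgeR adjusted p = 6.33e-06), and 9.66% of the double mutant's excess was kept. NIA1, the second nitrate reductase gene, averaged 7.59 ± 1.2 CPM in the triple mutant, 104 ± 19 CPM in the double mutant and 2.01 ± 1.5 CPM in Col-0, a log2 change of 1.91 against Col-0. SMXL3 had 3, 3 and 2 counts in the triple mutant and 0 in Col-0, at least 2.00-fold higher, and this call was lost under 9 alternatives. SMXL4, SMXL7, SMXL2 and SMAX1, relatives that act in phloem formation or in strigolactone and karrikin signalling, had log2 changes between -0.41 and 0.30 that did not pass the test. SMXL6 and SMXL8 had too few counts.

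Among the 15 genes with the largest rise against Col-0 at 10 CPM or more, all but PHI-1 had a mean between the double mutant and Col-0. The 15 kept a median of 47.7% of the double mutant's excess, with 27.3% the lowest value. They were chosen for being high in the triple mutant, so this share is a description. AK3, an aspartate kinase at the head of the synthesis of lysine, threonine and methionine, had 156, 139 and 134 CPM in the triple mutant, against 379, 364 and 291 CPM in the double mutant, 11.4, 9.07 and 9.69 CPM in rdr6-11 and 10.6, 8.76 and 11.3 CPM in Col-0. The triple mutant lay between the double mutant and Col-0 with no overlap, and rdr6-11 overlapped Col-0. Its log2 change against Col-0 was 3.79 ± 0.16 (SE, edgeR adjusted p = 9.99e-27).

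AT1G13360, of unknown function, had 55.3, 46.3 and 55.6 CPM in the triple mutant, against 3.84, 2.74 and 2.82 CPM in Col-0, and 183 ± 39 CPM in the double mutant (SD, n = 2). SERAT2;1, a serine acetyltransferase of cysteine synthesis, averaged 13.4 ± 2.9 CPM in the triple mutant, 33.0 ± 2.2 CPM in the double mutant and 0.496 ± 0.47 CPM in Col-0. Col-0 had 3 counts of it in all, so the triple mutant was 27.1-fold higher (95% counting interval 9.01 to 133). The transcription factor genes CDF3 and BBX16 averaged 10.5 ± 2.6 and 10.2 ± 1.0 CPM in the triple mutant, against 0.525 ± 0.55 and 0.317 ± 0.27 CPM in Col-0 (SD, n = 3 each). PUB25, a ubiquitin ligase gene, rose by 4.19 on the log2 scale. The glycosyltransferase gene AT2G18560 had 49, 57 and 42 counts in the triple mutant and 0, 0 and 3 in Col-0, a 37.1-fold higher level (95% counting interval 12.4 to 182).

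A few loci need a limit on which transcript was measured. ARO3 and AT4G36032 lie on opposite strands of the same stretch, with 279 and 272 counts over all libraries, and AT1G05562 overlaps UGT75B1 on the opposite strand by 2136 bases. The counts are not stated to use strand, so the partners cannot be told apart. AT1G05562 had 44.3, 45.6 and 44.4 CPM in the triple mutant, against 2.40, 2.74 and 3.29 CPM in Col-0, a log2 change of 3.97 ± 0.25 (SE). PHI-1, a gene responsive to phosphate and brassinosteroid, was the only one of the 15 with a higher mean in the triple than in the double mutant. It had 7.58, 14.3 and 14.6 CPM in the triple mutant, against 5.53 ± 0.54 CPM in the double mutant (SD, n = 2) and 0.480, 0 and 1.41 CPM in Col-0. The triple mutant was above the double mutant by 1.16 on the log2 scale (edgeR adjusted p = 3.83e-04).

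**Figure D4:**
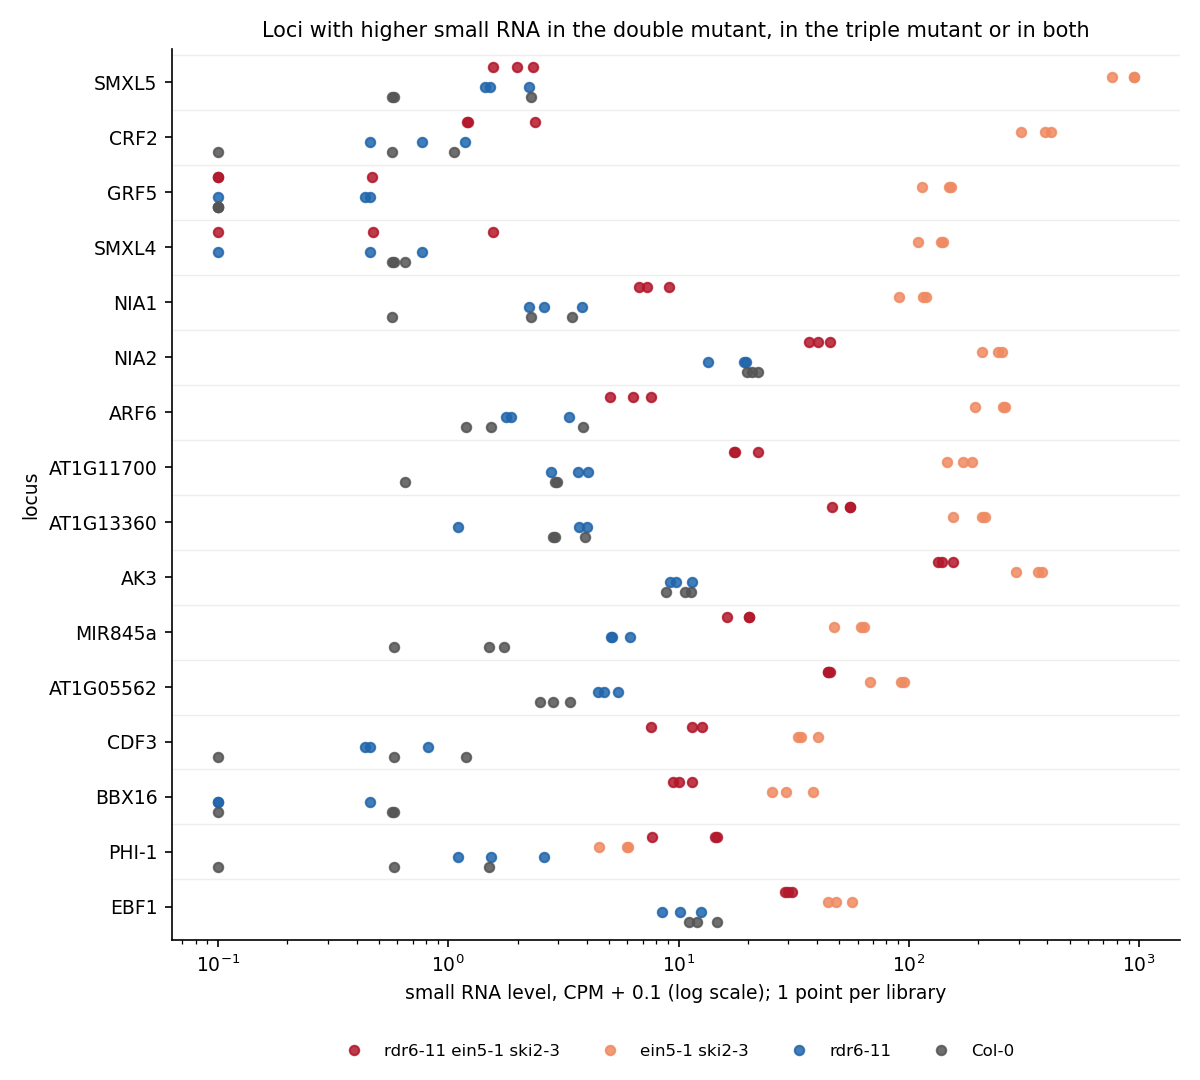
Small RNA level (CPM + 0.1, log axis) in every library at genes named for a high level in the double or the triple mutant. SMXL5, GRF5 and SMXL4 of the triple mutant overlap Col-0, CRF2 lies just above it, and AK3, MIR845a, CDF3 and EBF1 lie between the double mutant and Col-0.

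Among known miRNA targets, 27 of 72 genes could be tested, 7 were called higher in the triple mutant than in Col-0 and 1 lower, and 23 were lower than in the double mutant. Over all genes tested 8.78% were higher and 9.52% lower than in Col-0, and 27% lower than in the double mutant. DESeq2 called 4 of the 27 higher and 1 lower than in Col-0. The median log2 change against Col-0 was 0.76, and 9 of the 27 had enough counts in the triple mutant and Col-0 libraries alone. ARF6, an auxin response factor targeted by miR167, had 4.93, 6.25 and 7.47 CPM in the triple mutant, against 226 ± 46 CPM in the double mutant (SD, n = 2) and 1.44, 1.09 and 3.76 CPM in Col-0. It lay above Col-0 in all libraries by a log2 change of 1.51 ± 0.42 (SE, edgeR adjusted p = 5.54e-03) and kept 1.84% of the excess. The leaf polarity gene ATHB8, of the miR165 and miR166 target family, averaged 2.12 ± 0.78 CPM in the triple mutant, 50.2 ± 9.1 CPM in the double mutant and 0.339 ± 0.30 CPM in Col-0. SULTR2;1, a sulfate transporter gene targeted by miR395, averaged 3.49 ± 0.82 CPM in the triple mutant, 3.77 ± 1.2 CPM in the double mutant and 0.496 ± 0.47 CPM in Col-0. Col-0 had 3 counts of SULTR2;1 in all, and the triple mutant was 7.01-fold higher (95% counting interval 2.17 to 36.0).

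Genes of ethylene signalling, RNA silencing and RNA decay had few counts. Among all genes tested, 18.3% were called in the triple mutant against Col-0. EBF1, an F-box protein that removes the ethylene response factor EIN3, was the called member of 5 tested ethylene genes. It had 28.8, 29.8 and 31.0 CPM in the triple mutant, against 48.6 ± 5.6 CPM in the double mutant (SD, n = 2), 10.3 ± 2.0 CPM in rdr6-11 (SD, n = 3) and 12.0, 10.9 and 14.6 CPM in Col-0. All triple mutant libraries lay above Col-0, with a log2 change of 1.25 ± 0.19 (SE, edgeR adjusted p = 7.26e-07). EIN3 and EIL1, the transcription factors of the pathway, had log2 changes of 0.63 and 0.54 that did not pass the test. Of 17 small RNA pathway genes 3 could be tested, and AGO1, AGO2 and DCL1 had log2 changes of -0.38, 0.70 and -0.23, none called. Of these 3, 1 had enough counts in the triple mutant and Col-0 libraries alone, and AGO2 had 0, 2 and 9 counts in the triple mutant and 3, 1 and 1 in Col-0. Of 21 mRNA decay genes 5 could be tested, 4 of them on these 2 genotypes alone, and none was called. In both lists edgeR and DESeq2 had 0 genes at an unadjusted p under 0.05. SHR, which acts in root and leaf patterning, had 3.79, 5.15 and 3.36 CPM in the triple mutant, against 0.480, 0 and 0.470 CPM in Col-0 (edgeR adjusted p = 9.46e-05), a 12.4-fold higher level (95% counting interval 3.17 to 107).

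The miRNA genes stayed below or near wild type. Of 108 MIR genes tested, 48 were called lower in the triple mutant than in Col-0 and 6 higher. Among all genes tested these shares were 9.52% and 8.78%. The median log2 change of the MIR genes was -0.47, beside 0.03 over all genes. This direction depends on the scaling: with library totals 20 were lower and 12 higher, with a median of -0.09. By comparison, the summed level of all MIR genes was 19340 to 21530 CPM in the triple mutant, 50380 to 56350 CPM in rdr6-11 and 29550 to 32340 CPM in Col-0. Small RNA at MIR genes was therefore lower in the triple mutant than in rdr6-11 with no overlap of libraries.

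MIR172c and MIR172d give the same mature miRNA, an inhibitor of AP2-type flowering repressors, and their counts were nearly equal in every library. The sequence shared by both is given with its seed in capitals, as are those of the other named MIR genes below.
miR172c: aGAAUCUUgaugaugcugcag
miR394a: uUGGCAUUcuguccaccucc
miR845a: cGGCUCUGauaccaauugaug
miR391-5p: uUCGCAGGagagauagcgcca
MIR172c had 72.4, 58.4 and 42.9 CPM in the triple mutant, against 130, 120 and 114 CPM in Col-0, all lower, with a log2 change of -1.07 ± 0.13 (SE, edgeR adjusted p = 4.76e-09). MIR394a and MIR394b, which share the second sequence and act on an F-box gene of the leaf and stem cell niche, fell by 1.17 and 1.18. MIR847 fell by 1.06. MIR863 fell by 1.31, but 178 bases of its locus lie within AT4G13495 on the same strand, so reads cannot be assigned to either.

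The MIR845a locus, source of a miRNA that matches the primer binding site of retrotransposons, had the largest called rise among MIR genes with 10 CPM or more. It had 20.1, 16.2 and 20.2 CPM in the triple mutant, against 55.0 ± 11 CPM in the double mutant (SD, n = 2), 5.35 ± 0.60 CPM in rdr6-11 (SD, n = 3) and 0.480, 1.64 and 1.41 CPM in Col-0. All triple mutant libraries were higher than all Col-0 libraries, with a log2 change of 3.97 ± 0.36 (SE, edgeR adjusted p = 6.20e-13), and 32.8% of the double mutant's excess was kept. MIR391 had 36.0, 37.5 and 37.0 CPM in the triple mutant and 20.6, 24.1 and 16.9 CPM in Col-0, a log2 change of 0.85. MIR163 rose by 0.52, and MIR393a and MIR393b, the miRNA genes that target auxin receptors, rose by 0.39 each, calls that were lost under 9 and 5 alternatives.

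Most genes called lower belonged to tRNA and chloroplast genes. Of 568 tRNA genes tested, 365 were called lower in the triple mutant and none higher, with a median log2 change of -0.53. Among all genes tested 9.52% were lower and 8.78% higher than in Col-0. With library totals 144 tRNA genes were lower and none higher. By amino acid, the 65 proline tRNA genes had a median log2 change of -1.23 and the 14 tryptophan genes -1.17, while the 69 tyrosine genes had -0.26 and the 8 isoleucine genes -0.24. Many tRNA genes are near-identical copies that share reads, so these genes are not independent. Chloroplast genes had 61 of 129 called lower and none higher, but with library totals 4 were lower and 3 higher. Of 36 nuclear photosynthesis genes tested 1 was called higher and 3 lower than Col-0, beside 18.3% of all genes called, and at 23 of the 36 the triple mutant and Col-0 libraries did not overlap, beside 32.8% of all genes. The median log2 change was -0.14. The calls were 11 higher and 0 lower with library totals. Against the double mutant 28 of the 36 were higher, beside 14.4% of all genes tested. PSBP1, a subunit of the oxygen-evolving complex, averaged 41.8 ± 4.3 CPM in the triple mutant, 25.5 ± 2.0 CPM in the double mutant and 60.4 ± 4.5 CPM in Col-0. None of 17 cytosolic ribosomal protein genes was called against Col-0 by edgeR or DESeq2, with 0 at an unadjusted p under 0.05. Of the 17, 10 were higher than in the double mutant, beside the same 14.4% of all genes.

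**Figure D5:**
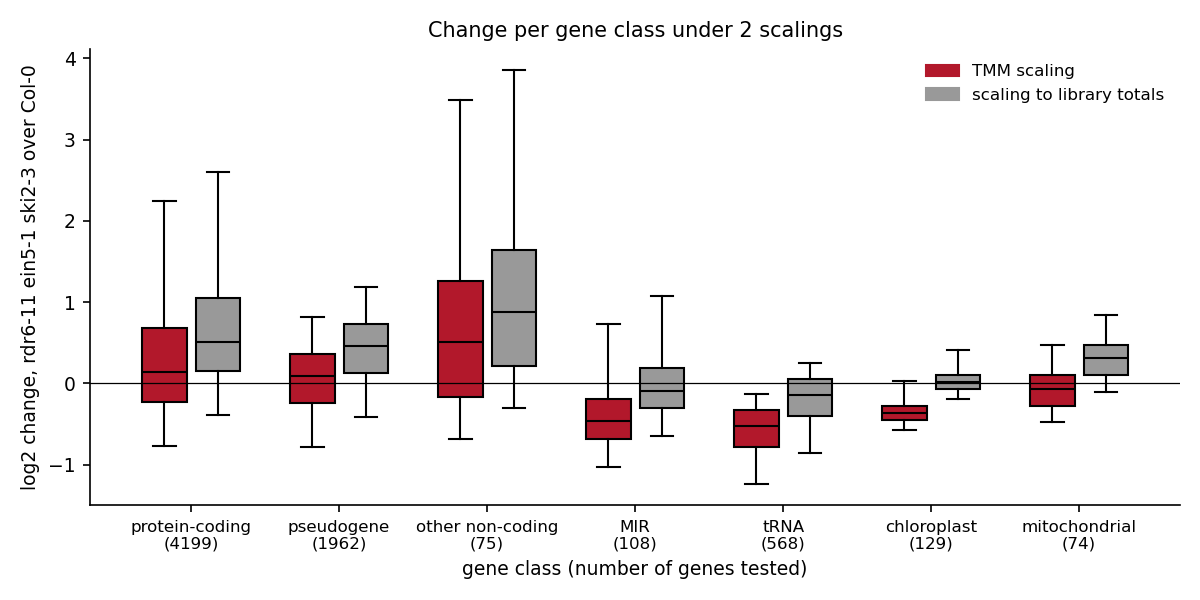
Log2 change in the triple mutant over Col-0 for 7 gene classes, with boxes from the lower to the upper quartile of the genes, lines at the medians and whiskers at the 5th and 95th percentiles, under TMM scaling (red) and scaling to library totals (grey). Medians under TMM were 0.14 for protein-coding genes, -0.47 for MIR genes and -0.53 for tRNA genes, and the chloroplast median moved to 0.02 with library totals.

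In protein-coding genes as a whole, 516 of 4199 tested were called higher and 141 lower in the triple mutant than in Col-0, with a median log2 change of 0.14. In pseudogenes the counts were 84 and 40 of 1962, with a median of 0.08. Over all genes tested 8.78% were called higher and 9.52% lower, so pseudogenes were called less often than genes in general. Both classes had more genes higher than lower also with library totals, 1041 and 61 in protein-coding genes and 453 and 7 in pseudogenes. With rRNA, tRNA and organelle genes left out, protein-coding genes had 389 higher and 221 lower. Pseudogenes then had 23 higher and 52 lower, the other direction. Against the double mutant the triple mutant had 620 protein-coding genes higher and 1074 lower, and 32 pseudogenes higher and 704 lower. Over all genes tested 14.4% were higher and 27% lower there.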

How the data were processed

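The authors deposited a table of whole-number read counts per gene for 12 small RNA libraries. Tools listed in the submitters' processing notes, with no role given, were DESeq, Bowtie2, Bowtie and CASAVA 1.8.2, and the build listed was TAIR10. The RNA was purified with a small RNA kit and made into Illumina libraries, per the labels' protocols. Strand, read length and the handling of reads with several matches are not given in the sources used here.

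Of 30926 gene IDs, 30403 matched the RefSeq TAIR10.1 annotation, which supplied names, classes and coordinates. Genes passing filterByExpr (minimum count 10, minimum total 15) were fitted in R 4.3.3 with edgeR 4.0.16: TMM scaling, 2-sided quasi-likelihood F tests and Benjamini-Hochberg adjustment over all 7219 genes. The 4 genotypes shared 1 fit. Replicates 1 and 2 of ein5-1 ski2-3 agreed within sampling noise over protein-coding genes (mean chi-square per gene 0.999, p = 0.509) and nearly so over all genes (1.04, p = 0.0158), each without the top 10 genes, and were summed, so n is 2 there. By the same measure Col-0 replicates 2 and 3 agreed over protein-coding genes (1.01, chi-square p = 0.368) but not over all genes (1.23, chi-square p = 4.66e-18). They were kept apart. p-values measure the spread between libraries, which may be technical. Groups without counts were set to 3 counts. Intervals cover counting error only. The filter lets genes enter through 1 genotype alone. A total of 445 genes had at least 100 counts and a profile identical to that of another gene.

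Named genes were, by rule, the 15 largest called changes each way at 10 CPM or more without overlap of libraries, all TAS, nitrate reductase and SMXL genes, up to 4 per other list, the 12 largest rises in the double mutant at 50 CPM or more, and the 6 largest MIR changes each way. Others named were chosen after their values were seen. Members and lists were chosen with earlier results of these data known. The alternatives tried were other scalings, filters, DESeq2 1.42.0, a fit of the 2 genotypes, all 12 libraries apart, a replicate block and leaving out each library. The fit was tested on simulated data.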

Additional observations from a re-analysis of the deposited data

Results flagged for a closer look

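The effect of the decay mutations could be set side by side without RDR6 (the triple mutant against rdr6-11) and with RDR6 (the double mutant against Col-0), and the difference of these 2 changes was tested in edgeR for every gene. At 10 of the 90 named genes tested, both changes passed the test with opposite signs and the difference passed as well. The share of such genes among all genes tested was not computed, so this count is a description. At TAS1A, TAS1C and TAS3A the decay mutations went with more small RNA without RDR6 and less with it, and the differences were 0.785, 1.58 and 2.57 on the log2 scale. LHCB6, RPS5B and UPF1 had the same pattern, with differences of 1.87, 1.81 and 2.25. The other direction was seen at MIR391 with -2.05, MIR163 with -1.10, MIR393a with -1.93 and MIR393b with -1.79. The signs depend on the scaling. With library totals the change with RDR6 was positive at TAS1A (0.55), TAS1C (0.51) and TAS3A (0.05), and it was not called at LHCB6 (-0.41), RPS5B (-0.22) and UPF1 (-0.36). Only the 4 MIR genes kept 2 called changes of opposite sign there. The rdr6-11 libraries had the highest summed MIR level of the 4 genotypes, and its part in these values was not tested.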

How the results depend on the processing

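For the triple mutant against Col-0, library totals gave 1576 genes higher and 250 lower, scaling to MIR genes gave 2517 and 120, DESeq2 gave 355 higher, and leaving out rRNA, tRNA and organelle genes gave 358 lower, beside 634 and 687 with TMM. Leaving out 1 library at a time gave 479 to 636 higher and 613 to 737 lower. Against the double mutant, library totals gave 274 higher and 3474 lower, a minimum count of 30 gave 665 and 1216, scaling to MIR genes gave 1047 lower, DESeq2 gave 756 lower, and leaving out ein5-1 ski2-3 replicates 1 and 2 gave 820 lower. There the ranges without 1 library were 830 to 1570 higher and 1235 to 1957 lower. For the double mutant against Col-0, library totals gave 4448 higher and 255 lower, a minimum count of 30 gave 1356 and 902, DESeq2 gave 1232 higher, leaving out replicates 1 and 2 gave 1204 higher, and scaling to MIR genes gave 544 lower, with 1635 to 2218 higher and 1189 to 1844 lower without 1 library. Against rdr6-11, scaling to MIR genes gave 5418 higher and 16 lower, no filter gave 928 higher, a minimum count of 30 gave 928 and 1090, and DESeq2 gave 877 and 1181, with 1095 to 1508 higher and 1482 to 1915 lower without 1 library. As a share of counts outside rRNA, tRNA and organelle genes, the ratio of the triple mutant to Col-0 was 0.778 for MIR, 0.0286 for TAS and 1.07 for protein-coding genes, beside 0.846, 0.0311 and 1.16 of all counts. Among 90 named genes, 1961 of 2037 pairs of gene and setting kept call and direction, 43 lost the call, 32 gained one, and PSBP1 reversed to a log2 change of 0.091 when scaled to MIR genes. Where a cause is not in the construction of the setting, the cause was not tested. Same-numbered replicates did not deviate together (18 correlations between -0.237 and 0.15), and a replicate block gave 618 higher and 717 lower against Col-0. Genes with few counts limit the depth, since the median gene had 2 counts per triple mutant library.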

Other observations

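At 24 genes all 3 triple mutant libraries lay above all 9 others, each of the 3 comparisons gave a call, and the rise over Col-0 was at least 2-fold. This set was drawn after the values were seen and carries no further test. All 24 are protein-coding. They include PHI-1, EXO and EXL3, members of the EXORDIUM family of growth-related cell wall proteins, 3 BTB and TAZ domain genes (BT1, BT2 and BT4), and the trehalose phosphate synthase-like genes TPS8 and TPS9. Some members had few counts. BT1 had 12, 10 and 19 in the triple mutant and 4, 6 and 2 in Col-0 (edgeR adjusted p = 0.0433). TPS9 had 15, 10 and 10 against 3, 3 and 3 (edgeR adjusted p = 0.0276). EXO averaged 33.2 CPM in the triple mutant, 11.3 CPM in the double mutant, 7.32 CPM in rdr6-11 and 4.03 CPM in Col-0. BT2, a nitrate- and sugar-responsive gene, averaged 23.9 CPM in the triple mutant, 3.84 CPM in the double mutant, 14.6 CPM in rdr6-11 and 11.4 CPM in Col-0. GATL6, EXGT-A3, BGAL1 and FLA13, which encode enzymes or proteins of the cell wall, rose over Col-0 by 2.22, 1.68, 1.05 and 1.15 on the log2 scale.

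By the same rule in the other direction, 31 genes lay below all 9 other libraries, of which 13 are annotated as pseudogenes, 12 as protein-coding and 4 as transposon loci. Of the 13 pseudogenes, 6 (AT1G11265 among them) had counts within 5 of those of AT1G11265 in every library, so they may share reads and the 13 are not 13 separate observations. Besides AT3G44570 and AT3G44580, the transposon loci are AT2G14000 with 0.739 CPM in the triple mutant and 29.9 CPM in Col-0, and AT3G30820 with 1.23 CPM in the triple mutant and 30.5 CPM in Col-0. Parts of these loci align to AT3G44570 with 82.7% to 92.3% identity, so the same reads may have been counted at more than 1 of them.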
